A study of Mus musculus with 8 samples.

Results

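The genes described here encode voltage-gated sodium, calcium and potassium channels and the proteins named after them. They are the rows of the deposited table whose symbol starts with Scn and a digit, with Cacn or with Kcn, and 88 of 14954 genes met this rule. By gene family the label fits 66 of the 88 rows, the pore and auxiliary subunits of the sodium, calcium and Kv potassium channel families. This split follows gene symbols and not how each channel is gated. Kcnma1, for example, opens with calcium and voltage together but is among the remaining rows. The other 22 rows are 9 genes of calcium- and sodium-activated potassium channels, 7 inward rectifiers (Kcnj), 5 tandem-pore leak channels (Kcnk) and Kcnq1ot1, a non-coding RNA that runs antisense to Kcnq1. Among the 66, the 7 Cacng genes include auxiliary proteins of AMPA-type glutamate receptors.

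The samples were 8 cultures of neural progenitors made from the mouse embryonic stem cell line A2lox.Cre Bcl6, in which tetracycline-type drugs switch on a Bcl6 transgene. All were differentiated with cyclopamine at 400 ng/ml, which blocks hedgehog signals. At day 12, 4 control cultures had received DMSO and 4 Bcl6-induced cultures 1 µg/ml doxycycline for 24 h, numbered as differentiations 1 to 4 in each group. Each culture gave 1 RNA-seq library, from 9.42 M to 9.74 M reads in the controls and 10.34 M to 15.03 M in the induced group. All cultures came from 1 line, the stem cells had been propagated on mouse embryonic fibroblasts, and no culture had doxycycline without the transgene, so the effects of doxycycline and of Bcl6 cannot be told apart. The comparison asks which of these channel genes change when the transcriptional repressor Bcl6 is raised in cortical-type progenitors.

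Voltage-gated channels are membrane pores that open when the membrane potential changes. Sodium channels carry the upstroke of the action potential, calcium channels couple electrical activity to calcium entry, and potassium channels bring the membrane back to rest and set how often a cell fires. Progenitors of the cortex are little excitable and neurons acquire these currents as they mature, although several potassium and calcium channels are also expressed in dividing cells. In each family a pore-forming subunit is joined by auxiliary subunits that set its trafficking and kinetics.

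Bcl6 was at 6.49 ± 0.49 CPM (the gene's value scaled to the library's total; SD, n = 4) in the controls and 391.5 ± 47.1 CPM (n = 4) in the induced cultures. Of 20 pan-neuronal markers 10 were higher, and their summed level was 1140 to 1404 CPM in control cultures and 1822 to 2182 CPM in Bcl6 cultures. Of 13 radial glia markers 6 were lower, with sums of 1736 to 2094 and 1216 to 1577 CPM. The cultures also held 11 of 11 pluripotency markers, 6 of them higher and 1 lower, at sums of 2134 to 2376 and 2041 to 2411 CPM, and 7 of 7 epithelial markers, 3 of them higher, at 796 to 927.4 and 1034 to 1211 CPM. Of 11 muscle and heart markers 1 was higher (47.8 to 63.5 against 59.8 to 85.7 CPM), of 3 glial markers none passed the test, although their sum was higher in every induced library (61.2 to 70.8 against 76.3 to 97.6 CPM), and of 5 endothelial and blood markers 1 was lower (54.6 to 69.8 against 58.97 to 75.0 CPM). No gene in the table had a mean of 0, so a measured marker does not by itself show that its cell type was present. The pluripotency and epithelial markers were not merely detected, though. Their median levels were 92.7 and 174 CPM, against 61.8 CPM for the pan-neuronal markers and 28.2 CPM for all genes, not adjusted for gene length. Listed genes outside the table were not analysed here, and the part of any of these cell types in the channel results was not tested.

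Of the 88 rows, 9 changed between the groups at a limma adjusted p under 0.05, with 6 genes up and 3 down in the induced cultures. That is 10.2% of the rows, against 6.81% of all 14954 genes, or 4.55% higher and 2.26% lower. The voltage-gated potassium channel genes Kcnh1, Kcnc1, Kcnf1 and Kcnb2, the calcium channel subunit Cacna2d1 and the inward rectifier Kcnj8 rose between 1.59-fold and 2.23-fold in mean CPM. The inward rectifier Kcnj3 and the Kv auxiliary subunit Kcnab1 fell to 0.59 and 0.58 of their control level. In all 9 the 4 libraries of one group lay outside the range of the other. The groups did not overlap for 21 of the 88 rows (13 with every induced library above and 8 below), or 23.9%, against 16.9% of all genes (10.7% above and 6.17% below). In bulk RNA a change in the number of cells that express a channel and a change in RNA per cell cannot be told apart.

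The median log2 fold change (induced minus control) was 0.07 over the 88 rows and 0.03 over all genes. By class the median was 0.21 for the 6 Scn alpha genes, 0.30 for the 3 Scn beta genes, 0.31 for the 9 Cacna1 genes, 0.08 for the 7 Cacna2d and Cacnb genes and 0.30 for the 7 Cacng genes. It was 0.07 for the 27 Kv pore genes, -0.21 for the 7 Kv auxiliary genes and -0.28 for the 9 calcium- and sodium-activated potassium channel genes. The 7 inward rectifiers had a median of -0.07 and the 5 tandem-pore genes one of 0.20. The number of rows with a positive fold change was 44 of 66 (66.7%) in the voltage-gated families and 8 of 22 (36.4%) in the remaining classes, against 55.4% of all genes. These classes are small and their members share libraries, so the medians are descriptions. The medians and shares use all libraries without correction for exon length and were not computed at other settings. Control 1 was the lowest control for 53.0% of the 66 rows and 45.5% of the other 22, against 32.2% of all genes. By class this was 83.3% for Scn alpha and 77.8% for Cacna1 genes, but 0% for Scn beta and 14.3% for Cacng genes. The part of control 1 in these medians was not tested.

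**Figure D1:**
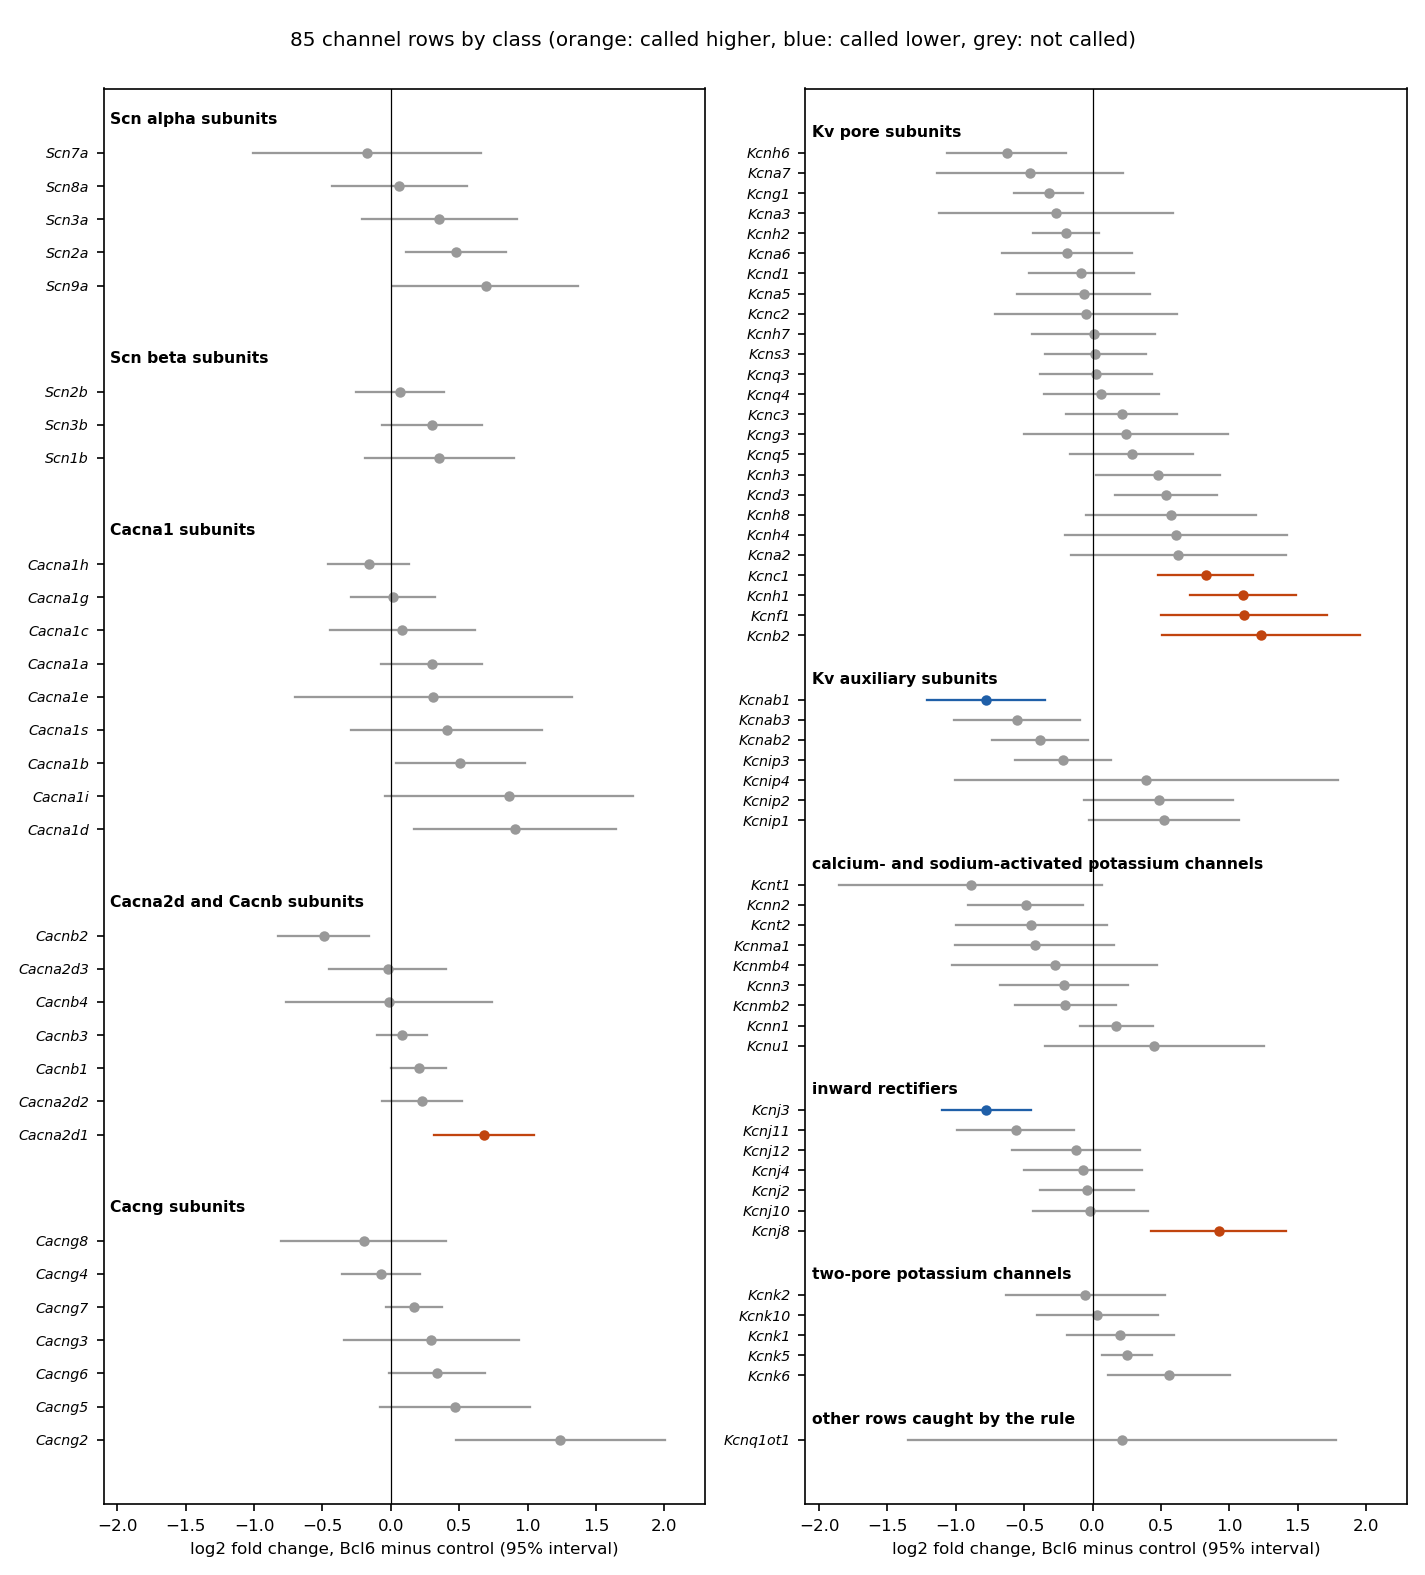
Log2 fold change (Bcl6 minus control, limma on log2(value + 1), n = 4 per group) with its 95% interval for 85 of the 88 rows, grouped by channel class. The 6 genes called higher (orange) include 4 Kv pore genes, the 2 called lower that are drawn (blue) are Kcnj3 and Kcnab1, and 77 rows (grey) did not pass the test.

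Control library 1 differed from the other controls in long genes, and channel genes are long. The median exon length (all exons of a gene merged) was 5.54 kb for the 88 rows and 4.32 kb for all genes, and control 1 was the lowest of the 4 controls for 45 of the 88 rows, or 51.1%, against 32.2% of all genes. For genes with over 6.73 kb of exon, the median difference of control 1 from the mean of the other controls was -0.31 (log2), and for the 38 channel genes of that length it was -0.62. With each library's trend on exon length and GC content taken off, 16 rows, or 18.2%, were called, against 10.3% of all genes. Of these 8 were higher and 8 lower, and they held all 9 of the rows called without the removal. Among the rows gained were Cacng2 and Kcnd3, higher, and Cacnb2, Kcnh6 and Cacna1h, lower. The calls given by class below are without this removal. With the removal, the median fold change was -0.036 for the 88 rows and -0.012 for all genes. Without control 1 these medians were 0.037 and 0.035. In that fit 12 rows were called (6 higher and 6 lower), or 13.6%, again with all 9 among them, against 11.3% of all genes. Control 3 stood apart in the other direction, as the highest control for 38 of the 88 rows, or 43.2%, against 26.99% of all genes. The median fold change of the 88 rows was 0.15 without control 3, 0.115 without control 4 and 0.14 without induced library 3. For all genes it was 0.036, 0.028 and 0.035. Across the 8 leave-outs the median of the 88 rows ran from 0.04 to 0.15. The part of exon length and of controls 1 and 3 in the higher calls was not tested further.

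**Figure D2:**
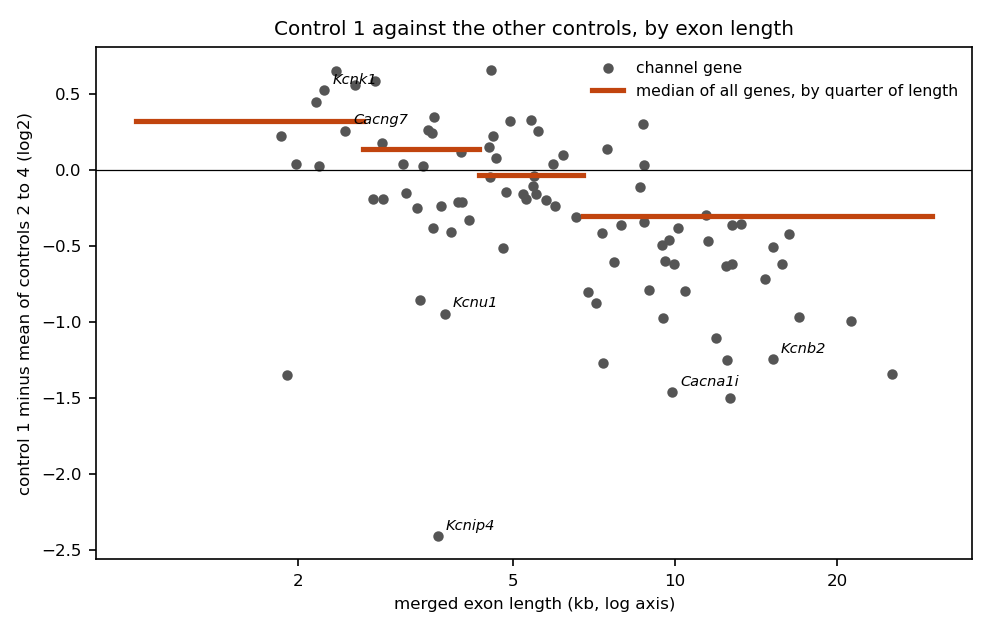
Difference (log2) between control 1 and the mean of controls 2 to 4 against merged exon length (kb, log axis) for 87 channel genes (points; Kcnq1ot1, at 93.1 kb, is left out), with the median of all genes in each of 4 length groups (orange lines). Channel genes over about 7 kb sit mostly below 0, as does the median of all genes over 6.73 kb (-0.31).

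Among the pore subunits of Kv channels, 4 of 27 rose and none fell. Kcnh1 encodes the pore of the ether-à-go-go potassium channel, a delayed rectifier found in the brain (chromosome 1, 192190774 to 192510159, plus strand, mm10). It was at 3.76, 5.21, 5.07 and 4.86 CPM in controls 1 to 4 and at 8.27, 8.72, 11.4 and 12.8 CPM in induced libraries 1 to 4. The lowest induced library lay well above the highest control, and libraries 3 and 4 were the highest of the induced group. Its log2 fold change was 1.103 ± 0.18 (SE), with an adjusted p of 0.0061, on 35 to 49 reads per control and 96 to 132 per induced library. Kcnc1, a subunit of the fast, high-threshold channels of fast-spiking neurons (chromosome 7, 46396497 to 46438704), was at 4.16, 6.16, 5.47 and 6.01 CPM in control cultures and at 9.42, 8.37, 9.97 and 10.8 CPM in Bcl6 cultures. The 4 induced libraries were close to each other and all above the controls (log2 fold change 0.83 ± 0.16, adjusted p = 0.013).

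Kcnb2 and Kcnf1 belong to channels of the Kv2 type, Kcnb2 as a delayed rectifier pore and Kcnf1 as a silent subunit that forms no channel alone but modifies Kv2 pores. Kcnb2 (chromosome 1, 15287254 to 15723750) was at 0.45, 1.503, 1.154 and 0.85 CPM in control cultures and at 2.20, 2.304, 2.15 and 2.16 CPM in the induced libraries. The induced libraries were almost equal, while the controls spread over 4 to 14 reads, with control 1 the lowest (1.23 ± 0.33, adjusted p = 0.048). Kcnf1 (chromosome 12, 17172100 to 17176888) was at 0.55, 0.95, 0.65 and 0.85 CPM in control cultures and at 1.70, 1.45, 1.35 and 2.16 CPM in Bcl6 cultures. It rested on 5 to 9 reads per control and 15 to 25 per induced library (1.105 ± 0.28, adjusted p = 0.039).

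**Figure D3:**
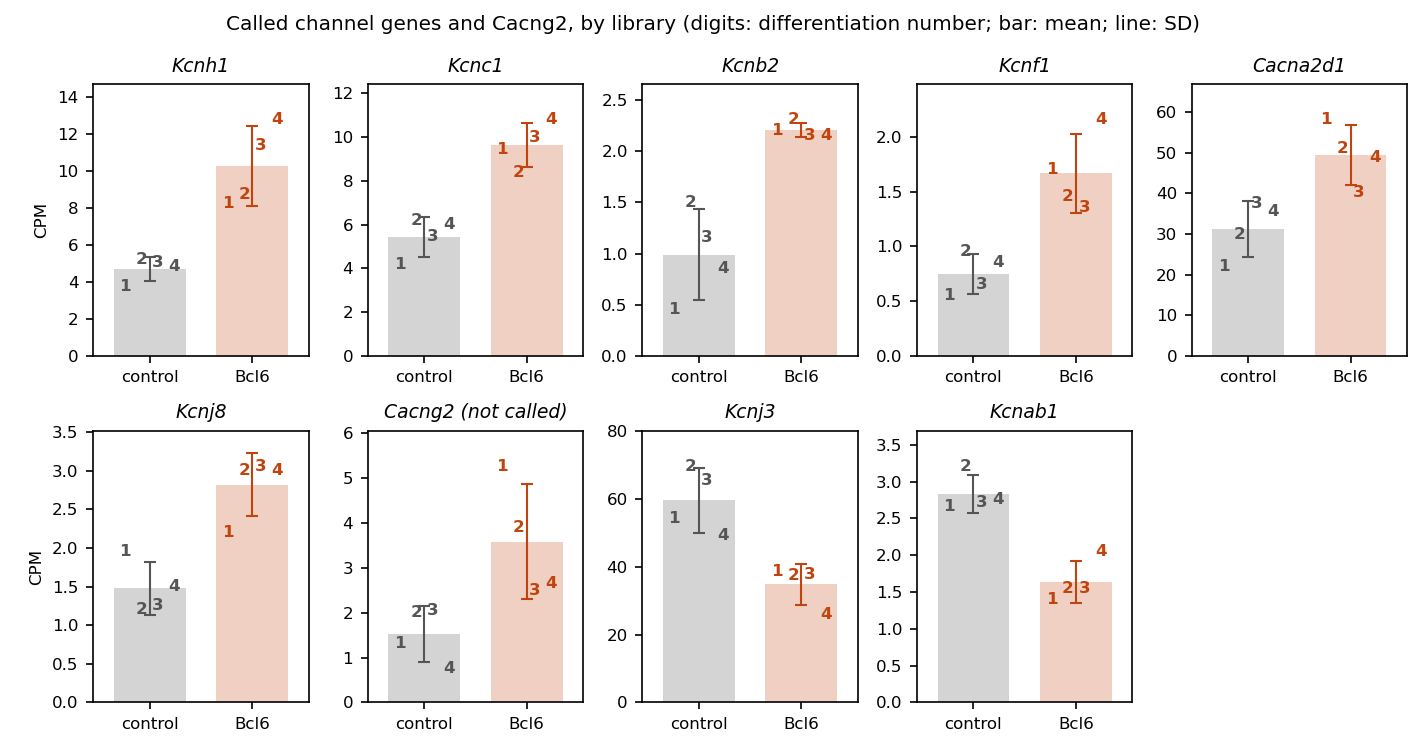
CPM of 8 called channel genes and of Cacng2, which was not called, in each library. Bars are means and lines SDs over n = 4, the digits mark the differentiation number, and in each panel the 4 control digits (grey) lie outside the range of the 4 induced digits (orange).

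The remaining 23 Kv pore genes did not pass the test. Kcnh2, the erg channel known for its part in cardiac repolarization and the Kv pore gene with the most reads, was at 30.3, 29.2, 41.0 and 31.3 CPM in control cultures and 27.7, 28.0, 29.4 and 29.0 CPM in Bcl6 cultures. Control 3 alone stood high, and the groups overlapped (-0.19 ± 0.11, adjusted p = 0.31; 95% interval -0.44 to 0.05). Kcnq3, a subunit of the M-current that limits repetitive firing, was at 16.8 ± 4.19 and 16.8 ± 2.64 CPM. Kcnd3, an A-type channel, had 11.5 ± 2.36 and 16.5 ± 2.54 CPM (adjusted p = 0.086), and the erg gene Kcnh6 had 4.15 ± 1.09 and 2.61 ± 0.04 CPM with every induced library below the controls (adjusted p = 0.085). Kcnq3, Kcnd3, Kcnh6 and the other uncalled genes named here beyond the fixed rule were picked after their values were seen.

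The auxiliary subunits of Kv channels gave 1 fall and no rise among 7. Kcnab1, a beta subunit that speeds the inactivation of Kv1 channels (chromosome 3, 65109384 to 65378223), was at 2.66, 3.21, 2.71 and 2.76 CPM in control cultures and 1.40, 1.553, 1.553 and 2.06 CPM in the induced libraries. All induced libraries lay below all controls, with 25 to 30 reads per control and 17 to 21 per induced library (-0.78 ± 0.20, adjusted p = 0.041). The other beta subunits did not pass, Kcnab2 at 9.75 ± 1.04 and 7.54 ± 1.54 CPM (-0.38 ± 0.16, adjusted p = 0.18) and Kcnab3 at 6.53 ± 1.77 and 4.41 ± 0.97 CPM (-0.55 ± 0.21, adjusted p = 0.14). Of the 4 Kcnip genes, which encode calcium-binding partners of Kv4 channels, none was called. Kcnip2 had 6.26, 4.16, 7.02 and 4.86 CPM in control cultures and 10.2, 10.3, 5.61 and 5.81 CPM in Bcl6 cultures, with libraries 1 and 2 above and libraries 3 and 4 within the control range.

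With all libraries and no correction, no gene was called among the 9 pore subunits of voltage-gated calcium channels. The T-type gene Cacna1h had the most reads, with 27.5, 33.8, 43.0 and 37.3 CPM in control cultures and 31.7, 30.8, 27.3 and 35.6 CPM in Bcl6 cultures (-0.16 ± 0.14, adjusted p = 0.50). Its relative Cacna1g was at 21.6 ± 4.28 and 21.6 ± 1.83 CPM, with a 95% interval of the log2 fold change from -0.29 to 0.32. Cacna1d, an L-type channel, was the only one of the 9 with groups that did not overlap, at 0.85, 2.45, 2.16 and 2.96 CPM in control cultures and 4.41, 3.66, 3.11 and 3.51 CPM in Bcl6 cultures (0.91 ± 0.34, adjusted p = 0.13). The N-type channel Cacna1b was at 14.3 ± 5.01 and 19.6 ± 2.98 CPM (0.51 ± 0.21, adjusted p = 0.18). Cacna1a, the P/Q-type channel, was at 12.1 ± 3.50 and 14.4 ± 0.63 CPM (0.30 ± 0.17, adjusted p = 0.30). Without control 3 both were called higher. Control 1 was the lowest control for 7 of the 9 genes.

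Of the 7 genes of the alpha2delta and beta subunits of calcium channels 1 rose. Cacna2d1 encodes an extracellular subunit that carries the pore to the cell surface and is the binding site of gabapentin (chromosome 5, 15934691 to 16374511). It was at 22.0, 29.95, 37.4 and 35.5 CPM in control cultures and 58.0, 51.0, 40.1 and 48.8 CPM in Bcl6 cultures. Induced library 3 came closest to the controls, and control 1 was the lowest of all libraries (0.68 ± 0.17, adjusted p = 0.035). Cacna2d2 was at 20.5 ± 3.66 and 23.9 ± 2.303 CPM (adjusted p = 0.32). The beta subunit with the most reads, Cacnb3, was at 58.3, 50.5, 55.9 and 54.9 CPM in control cultures and 63.7, 60.5, 52.7 and 55.9 CPM in Bcl6 cultures, with overlapping groups (0.08 ± 0.08, adjusted p = 0.59; 95% interval -0.10 to 0.27). Cacnb2 lay lower in each induced library, at 8.67 ± 1.41 against 6.13 ± 0.63 CPM, without passing (-0.49 ± 0.15, adjusted p = 0.079).

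Among the Cacng genes none was called. Cacng7, an auxiliary protein of AMPA receptors, was at 64.1, 51.8, 50.6 and 58.9 CPM in control cultures and 63.4, 64.4, 66.7 and 58.2 CPM in Bcl6 cultures (0.17 ± 0.09, adjusted p = 0.28). Cacng2, known as stargazin, which brings AMPA receptors to synapses, was the only uncalled row with a difference of at least 1 on the log2 scale. It was at 1.30, 2.00, 2.06 and 0.75 CPM in control cultures and 5.26, 3.91, 2.51 and 2.66 CPM in Bcl6 cultures, with 7 to 20 reads per control. The groups did not overlap, but the spread in both was wide (1.24 ± 0.35, adjusted p = 0.058).

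None of the sodium channel genes described here passed the test. Scn8a, the alpha subunit with the most reads and the main sodium channel of nodes of Ranvier, ranged from 21.9 to 47.96 CPM in control cultures and from 25.6 to 41.0 CPM in Bcl6 cultures (0.06 ± 0.22, adjusted p = 0.90). The sign of this difference changed under several settings, so no direction can be given. Scn3a, the alpha subunit typical of the embryonic brain, was at 9.17, 18.8, 24.3 and 23.1 CPM in control cultures and 25.1, 20.6, 20.6 and 24.4 CPM in Bcl6 cultures. Control 1 alone was low (0.36 ± 0.26, adjusted p = 0.43). Scn2a had 3.11, 4.26, 3.71 and 4.11 CPM in control cultures and 5.96, 5.71, 5.06 and 4.46 CPM in Bcl6 cultures, without overlap (0.48 ± 0.17, adjusted p = 0.11; 95% interval 0.11 to 0.84). The beta subunit Scn3b was at 19.0, 19.0, 19.92 and 19.8 CPM in the controls, a narrow range, and at 29.5, 30.5, 17.3 and 21.002 CPM in Bcl6 cultures. Induced libraries 1 and 2 were high and library 3 was below every control (0.30 ± 0.17, adjusted p = 0.30).

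Sequence near the start sites was examined because Bcl6 binds DNA and because sodium channel genes are known targets of REST, a repressor of neuronal genes that binds the RE1 element. RefSeq start sites (GRCm38.p6) were found for 65 of the 88 rows by symbol, among them 7 of the 9 called genes. The 250 bases upstream were searched on both strands. A gene counted if the window of any of its start sites held the motif, so genes with more start sites had more sequence searched. The number of start sites was not equalised, so the shares below are not like for like. The Bcl6 motif TTCCTNGAA was in an upstream window of 2 of the 65 genes, or 3.08%, against 1.22% of 10859 genes of the table. The 2 were Scn2a (chr2:65668527-65668589, plus strand) and Scn2b (chr9:45117695-45117757, plus strand), neither of which was called. TTCAGCACC, the left part of the RE1 element, was in 1 of 65, Kcnh6 (chr11:106007935-106007997, plus strand), or 1.54% against 0.40%. The E-box CAGCTG, bound by neurogenic basic helix-loop-helix factors, was in 18 of 65, or 27.7% against 14.5%, and Kcnj3 (chr2:55435878-55435937, plus strand) was the only called gene among the 18. None of the 7 called genes with a start site held either of the first 2 motifs, and none of the motifs overlapped another in the windows shown. Capitals mark the matches in these stretches, printed so that the letters can be compared, and a match is a description of sequence, not a site.
Scn2a: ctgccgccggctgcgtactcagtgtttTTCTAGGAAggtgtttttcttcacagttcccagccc
Scn2b: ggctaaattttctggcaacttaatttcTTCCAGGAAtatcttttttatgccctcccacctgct
Kcnh6: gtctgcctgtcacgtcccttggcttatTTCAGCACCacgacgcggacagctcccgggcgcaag
Kcnj3: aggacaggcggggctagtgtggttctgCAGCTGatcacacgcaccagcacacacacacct
In Scn2a and Scn2b the motif lies on the minus strand and is printed as read on the plus strand, and it ends 124 and 146 bases upstream of the start. Scn2b was at 5.38 ± 0.71 CPM in control cultures and 5.61 ± 0.49 CPM in Bcl6 cultures (0.07 ± 0.15, adjusted p = 0.82).

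The inward rectifiers, which pass potassium near the resting potential and have no voltage sensor, gave 1 rise and 1 fall among 7. Kcnj3 encodes a G-protein-activated channel opened by inhibitory neurotransmitter receptors (chromosome 2, 55435970 to 55598145, plus strand). It was at 54.3, 69.6, 65.3 and 49.1 CPM in control cultures and 38.5, 37.5, 37.6 and 25.9 CPM in Bcl6 cultures. The highest induced library was below the lowest control, and induced library 4 stood below the other 3 (-0.78 ± 0.15, adjusted p = 0.014). With 468 to 660 reads per control it is the best covered of the 9 genes. Antisense gene Gm26794 shares 31.1% of its exon bases, and whether reads were counted by strand is not given in the sources used here. Kcnj8, a pore subunit of ATP-sensitive potassium channels (chromosome 6, 142564837 to 142571614), was at 1.95, 1.202, 1.25 and 1.503 CPM in control cultures and 2.20, 3.01, 3.06 and 3.01 CPM in Bcl6 cultures, on 11 to 18 reads per control (0.92 ± 0.23, adjusted p = 0.036). Kcnj11, the other pore gene of these channels, was at 2.23 ± 0.23 and 1.49 ± 0.11 CPM, with every induced library below the controls but no call (-0.56 ± 0.19, adjusted p = 0.11).

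Of the 5 tandem-pore leak channels and the 9 genes of calcium- and sodium-activated channels none was called. Kcnk5, an acid-sensitive leak channel, had 41.9, 38.3, 40.7 and 44.8 CPM in control cultures and 52.3, 52.2, 46.7 and 46.2 CPM in Bcl6 cultures, all above the controls but by a small margin (0.25 ± 0.08, adjusted p = 0.094). Kcnk1 was at 16.8 ± 3.49 and 19.5 ± 4.23 CPM (adjusted p = 0.52). Kcnn1, a small-conductance calcium-activated channel, was at 11.9 ± 1.21 and 13.4 ± 1.43 CPM (0.17 ± 0.12, adjusted p = 0.41). The related Kcnn2 was at 4.398 ± 0.34 and 3.17 ± 0.70 CPM, each induced library below the controls (-0.49 ± 0.19, adjusted p = 0.15). Kcnma1, the large-conductance channel opened by calcium and voltage together, was at 5.21 ± 1.52 and 3.82 ± 1.00 CPM (adjusted p = 0.36). Kcnq1ot1, the imprinted non-coding RNA, was at 2.25, 3.21, 27.1 and 13.8 CPM in control cultures and 6.56, 4.71, 8.17 and 19.7 CPM in Bcl6 cultures. Its spread within a group was many times the difference between the groups, and no direction can be given (0.21 ± 0.71, adjusted p = 0.89).

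Levels of different genes can be compared only per length, here as CPM per kb of merged exon. The highest in the controls was Cacng7 at 23.1 ± 2.59, followed by Cacnb3 at 13.7 ± 0.81, Kcnk5 at 12.2 ± 0.79, Kcnj3 at 11.4 ± 1.83, Cacng4 at 7.65 ± 1.24, Kcnk1 at 7.53 ± 1.56 and Kcnh2 at 6.799 ± 1.12. Kcnk5 and Kcnj3 did not differ beyond their spread in the controls, nor did Cacng4, Kcnk1 and Kcnh2. Most of these leading genes are auxiliary subunits or channels without a voltage sensor. The pore subunits of sodium and calcium channels were lower, led by Cacna1h at 3.63 ± 0.67, Cacna1g at 2.13 ± 0.42 and Scn8a at 2.01 ± 0.74. After induction Cacng7 was at 25.9 ± 1.48, Cacnb3 at 14.5 ± 1.21, Kcnk5 at 14.5 ± 0.99 and Kcnj3, now sixth in order, at 6.68 ± 1.154. At the low end stood Kcnb2, at 0.065 ± 0.03 in the controls and 0.145 ± 0.005 after induction.

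**Figure D4:**
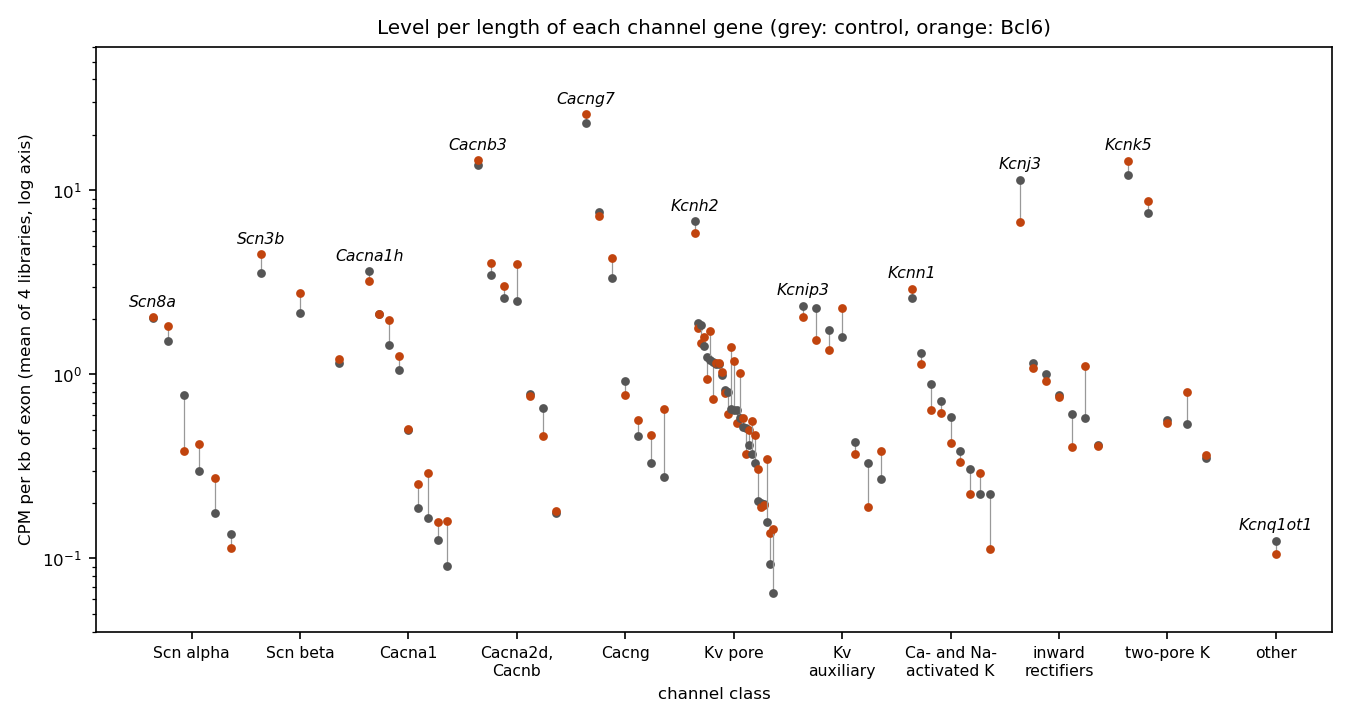
Mean CPM per kb of merged exon (log axis) of each channel gene in the controls (grey) and the induced cultures (orange), n = 4 each, joined by a line and ordered by control level within each class. The gene with the highest control level in each class is named, and Kcnj3 shows the largest drop among those named, from 11.4 to 6.68.

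The calls did not rest equally on single libraries. Kcnh1 and Kcnc1 passed without any one of the 8 libraries, with adjusted p values of at most 0.024 and 0.049. Kcnj3 failed only without control 2 (adjusted p = 0.053). Cacna2d1 was lost without control 2 or induced library 1, 2 or 4 (adjusted p of up to 0.12). Kcnb2 and Kcnab1 were each lost in 6 of the 8 leave-outs (adjusted p of up to 0.14 each), and Kcnf1 and Kcnj8 in 7 of 8 (up to 0.13 and 0.12). Kcnb2 kept its call without controls 1 or 2, Kcnab1 without control 1 or induced library 4, and Kcnf1 and Kcnj8 without control 1. No leave-out changed the direction of any of the 9.

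Each count of called rows can be read against the share of all genes called at the same setting. Without control 1, 2, 3 or 4, the channel rows called numbered 12, 3, 7 and 6. That is 13.6%, 3.41%, 7.95% and 6.82% of the 88, where 11.3%, 2.40%, 5.80% and 5.58% of all genes were called. Without induced library 1, 2, 3 or 4 they numbered 3, 4, 6 and 5. That is 3.41%, 4.55%, 6.82% and 5.68%, against 2.06%, 2.34%, 4.34% and 5.44% of all genes. Pseudocounts of 0.1 and 10 gave 8 and 9 rows (9.09% and 10.2%, against 6.76% and 6.93% of all genes). Median-of-ratios, TMM and upper quartile scaling gave 8 rows each (9.09%, against 6.42%, 6.45% and 6.52% of all genes). A minimum mean of 100 left 40 rows, 5 of them called (12.5%, against 7.97% of all genes left). Array weights gave 16 rows, or 18.2% of the 88, against 16.8% of all genes. A block for the differentiation number gave 4 rows, or 4.55%, below the 5.53% of all genes. The block with length and GC removed gave 16 rows, or 18.2%, against 10.5%.

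**Figure D5:**
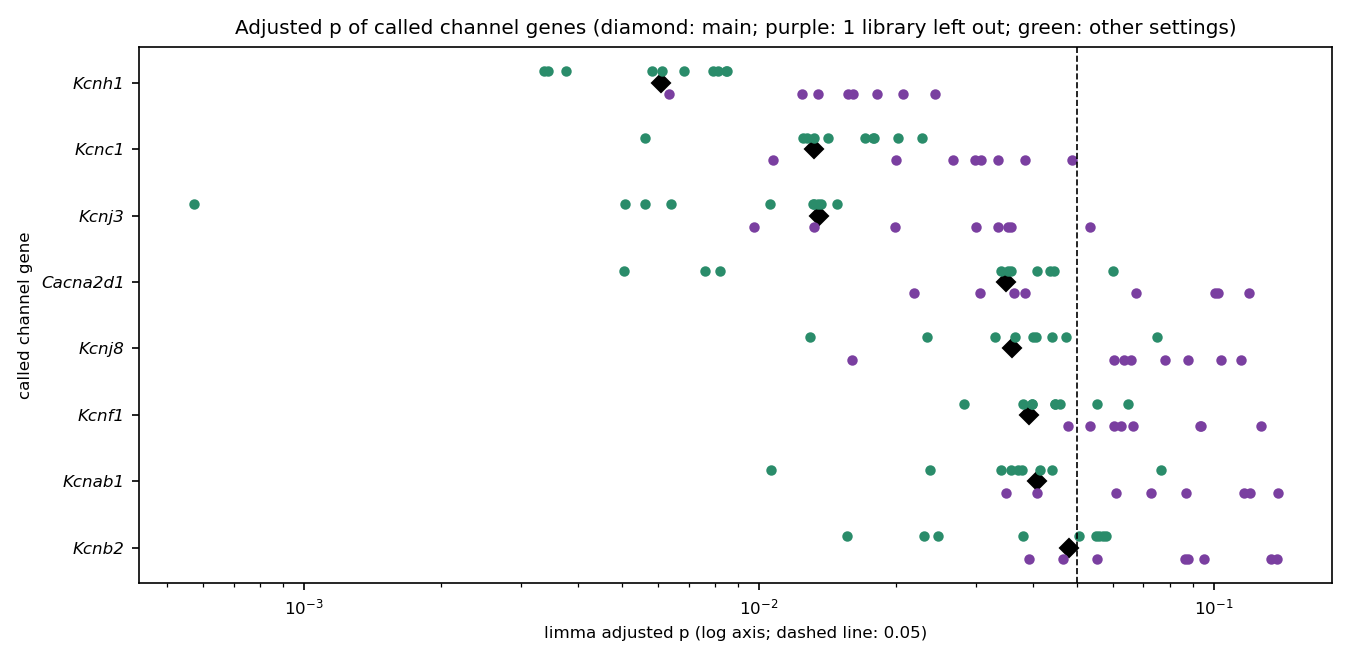
Limma adjusted p (log axis, dashed line at 0.05) of 8 called genes with all libraries (diamonds), with 1 library left out (purple) and under the other settings (green). Kcnh1 and Kcnc1 stay left of the line at every setting, while most leave-out points of Kcnj8, Kcnf1, Kcnab1 and Kcnb2 lie to its right.

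Of 34 measured genes for proteins that anchor or modulate these channels, or act beside them, 1 changed. Cntnap2, which clusters Kv1 channels beside nodes of Ranvier, fell from 26.3 ± 2.94 CPM to 17.8 ± 2.04 CPM, a log2 change of -0.56 ± 0.12 (adjusted p = 0.020), and it did not pass without control 2 or induced library 1, 2 or 3. That is 1 of 34 against 6.81% of all genes, and the list's median fold change was 0.09, against 0.03. The anchors of sodium channels at the axon initial segment did not pass, Ank3 at 115.9 ± 19.5 and 137.8 ± 12.7 CPM and Ank2 at 98.4 ± 25.7 and 118.9 ± 14.0 CPM. Fgf13, an intracellular partner of sodium channels, was at 17.9 ± 1.68 and 13.003 ± 2.14 CPM, with every induced library below the controls (-0.46 ± 0.13, adjusted p = 0.060).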

How the data were processed

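RNA-seq libraries of 8 cultures were compared. The submitters' processing notes name STAR 2.5.3a, HTSeq 0.9.1, edgeR 3.20.1 and mm10, without roles. The authors deposited 1 table of expression scores, whole numbers made by scaling reads to about 20 M per library and rounding up. Decimal commas had become column breaks, so all 14954 lines were rejoined by matching each value to its CPM. The authors' other deposited CPM cells and statistics were not used further. The scores lie on multiples of a step (1.33 to 2.12) for at least 99.7% of low values, which gave the read totals. They are not raw counts, so the planned count tests were not run.

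Limma 3.58.1 (R 4.3.3) was fitted with a variance trend on log2(score + 1) of all genes, Benjamini-Hochberg adjusted. The fit was also run on simulated data with independent libraries, the same dispersion for all genes and no trend on length. That run cannot speak to the length trend or to the numbering of these libraries. Fold changes on this scale understate the change of low genes. No filter on low values was applied: the lowest mean in the table was 15.1. All 88 members were tested. P-values measure the spread between these cultures, whose independence the labels do not describe further. Some members are not reported here. Otherwise a fixed rule gave called members, the member with most reads per class and uncalled members with a log2 change of at least 1. Further uncalled members were picked after their values were seen. Members, classes and lists were chosen with earlier results of these data known. GENCODE vM21 (GRCm38, that is mm10) gave positions and exon lengths for 88 of 88 members. The main fit was planned without a block for the differentiation number, which was an alternative. Same-numbered libraries did not all deviate together, but this cannot show that they were unpaired. Alternatives were pseudocounts, a filter, scalings, length and GC correction, weights, a block and leave-outs.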

Additional observations from a re-analysis of the deposited data

Results flagged for a closer look

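Among 40 groups of 4 libraries (20 named genes in 2 groups), 2 held a library far from the others relative to the group's range, and chance alone flags about 1 in 20. Kcnj3 in induced library 4 was at 25.9 CPM, against 37.5 to 38.5 CPM in the other induced libraries. Kcnj8 in induced library 1 was at 2.20 CPM, against 3.01 to 3.06 CPM in the other 3. Without those libraries both genes kept their direction.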

How the results depend on the processing

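The number of channel rows called (9; 6 higher, 3 lower) was 5 with a minimum mean of 100 (3 higher), 16 with the length and GC trend removed (8 lower) and 16 with array weights (10 higher, 6 lower). Single leave-outs gave 3 to 12 rows called, 2 to 6 higher and 0 to 6 lower. With control 2 left out 3 were called, all higher, and with induced library 1, 2 or 4 left out 3, 4 and 5. A pseudocount of 0.1 and the 3 rescalings each lost Kcnb2 alone, and a pseudocount of 10 kept all 9. Whether the differentiation numbers pair the libraries is not known. The correlation of deviations was 0.03, 0.01, -0.03 and 0.37 for numbers 1 to 4. Not every library correlated best with its own number, but such correlations cannot show that same-numbered cultures were made separately. With a replicate block 4 rows were called (2 higher, Kcnh1 and Kcnc1, and 2 lower), and 16 (8 lower) with the block and the length and GC trend removed. Channel partners called numbered 2 under each of the 3 rescalings, the length and GC removal with or without the block and array weights, and 0 to 1 in leave-outs; radial glia markers called numbered 2 to 6 in leave-outs. Uncalled genes changed sign. Scn8a was at -0.095 with length and GC removed, with or without the block, at -0.064 with array weights, and from -0.092 to 0.28 over leave-outs. Cacnb3 was at -0.044 with that removal, with or without the block. Kcnq1ot1 was at -0.057 with it, at -0.32 with array weights, and from -0.34 to 0.85 over leave-outs. The planned count tests were not run, because the deposited values are not counts. Depth limits the low genes: Kcnb2, Kcnf1 and Kcnj8 rest on 4 to 18 reads per control.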
